A study of Homo sapiens with 12 samples.

Results

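The CCGG islands described here are 841 stretches of 1 kb in which CCGG sites stand close together and yet were almost never cut by HpaII in DNA of 2 clear cell renal cell carcinoma (ccRCC) lines, labelled 786 and 769. They were drawn from 431754 fixed 1 kb windows with a listed site on chromosomes 1 to 22, of which 10684 were eligible, with 10 or more reference CCGG sites and 10 or more tags in every MspI library. The share of a DNA sample's nuclear HpaII tags that fell in a window, divided by the share of its MspI tags, is called the HpaII/MspI ratio. A member had a ratio of 0.2 or less in both 786 samples treated with AA, both 769 samples treated with AA and the 769 control. The members are 7.872% of the eligible windows. They were chosen by their measured ratios in those 5 samples, so a low ratio there is not a result.

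The samples were DNA of 786 cells given AA (numbered 1 and 2), 786 control cells, 769 cells given AA (numbered 1 and 2) and 769 control cells, with 1 control in each line. AA is read as ascorbic acid from the title of the series. Its dose and time of exposure and what the numbers 1 and 2 stand for are not given in the sources used here. Each DNA sample was cut in separate reactions with HpaII and with MspI, which makes 12 libraries. All samples are established tumour cell lines, each line is a single cell line, and the p-values measure only the spread between these DNA samples, which may be technical.

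HELP-tagging counts short sequence tags beside restriction sites. HpaII cuts CCGG only where the central CpG is unmodified, whereas MspI cuts the same site either way, so MspI tags show that a site is present and can be sequenced. Dense clusters of CpG sites, the CpG islands, usually lie at gene starts and are usually free of methylation, but islands within genes, near chromosome ends and in tandem repeats are often methylated, and promoter islands can gain methylation in tumours. Ascorbic acid is a cofactor of the TET enzymes, which oxidise methylated cytosine.

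Few members held a gene start. Of those that did, 6 promoters are shown because each has a run of CCGG sites with many MspI tags, and because they span the range seen at such starts, from no HpaII tag at ALOX12 to the most, 48, at CHAD. The sequences are RefSeq's, on GRCh38.p14, and run 5′ to 3′ along the strand of the gene, from 250 bases before its start to 50 bases after it, with each CCGG site in capitals. CHAD lies at chr17:50468831-50469130 on the minus strand, CLDN7 at chr17:7262429-7262728 on the minus strand and EPS8L2 at chr11:720390-720689 on the plus strand. SBNO2 lies at chr19:1132172-1132471 on the minus strand, ALOX12 at chr17:6995799-6996098 on the plus strand and FAM217A at chr6:4079088-4079387 on the minus strand. They hold between 4 and 11 CCGG sites each, and between 67.33% and 79.67% of their bases are G or C.
CHAD: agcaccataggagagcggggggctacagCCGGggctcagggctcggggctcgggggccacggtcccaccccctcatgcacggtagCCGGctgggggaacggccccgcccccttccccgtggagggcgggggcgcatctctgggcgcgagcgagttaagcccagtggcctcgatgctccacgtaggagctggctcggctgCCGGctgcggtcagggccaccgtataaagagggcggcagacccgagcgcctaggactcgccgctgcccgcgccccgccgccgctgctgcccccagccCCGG
CLDN7: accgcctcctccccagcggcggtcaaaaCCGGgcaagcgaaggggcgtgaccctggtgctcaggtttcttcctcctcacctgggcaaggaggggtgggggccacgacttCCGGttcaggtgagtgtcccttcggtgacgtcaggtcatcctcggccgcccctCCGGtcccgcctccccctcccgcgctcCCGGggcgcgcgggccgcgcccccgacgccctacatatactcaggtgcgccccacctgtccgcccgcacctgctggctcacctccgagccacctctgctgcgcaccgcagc
EPS8L2: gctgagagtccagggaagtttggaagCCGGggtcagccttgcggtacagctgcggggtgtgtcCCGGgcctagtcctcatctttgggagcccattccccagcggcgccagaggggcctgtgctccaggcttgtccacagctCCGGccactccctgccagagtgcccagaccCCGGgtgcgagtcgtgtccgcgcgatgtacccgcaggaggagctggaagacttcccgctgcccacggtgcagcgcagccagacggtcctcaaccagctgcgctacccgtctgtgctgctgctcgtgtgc
SBNO2: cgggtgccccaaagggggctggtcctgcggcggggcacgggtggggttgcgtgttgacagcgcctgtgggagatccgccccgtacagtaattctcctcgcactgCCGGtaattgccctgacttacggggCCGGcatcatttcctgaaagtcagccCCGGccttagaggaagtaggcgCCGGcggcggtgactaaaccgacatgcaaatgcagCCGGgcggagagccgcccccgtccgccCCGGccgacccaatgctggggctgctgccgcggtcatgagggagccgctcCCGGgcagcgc
ALOX12: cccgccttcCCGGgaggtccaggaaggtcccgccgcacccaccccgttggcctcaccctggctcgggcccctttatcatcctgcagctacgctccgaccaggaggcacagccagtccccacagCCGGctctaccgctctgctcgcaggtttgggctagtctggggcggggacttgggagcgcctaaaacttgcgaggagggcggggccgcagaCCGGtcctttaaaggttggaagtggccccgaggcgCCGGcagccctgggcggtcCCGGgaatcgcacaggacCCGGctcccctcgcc
FAM217A: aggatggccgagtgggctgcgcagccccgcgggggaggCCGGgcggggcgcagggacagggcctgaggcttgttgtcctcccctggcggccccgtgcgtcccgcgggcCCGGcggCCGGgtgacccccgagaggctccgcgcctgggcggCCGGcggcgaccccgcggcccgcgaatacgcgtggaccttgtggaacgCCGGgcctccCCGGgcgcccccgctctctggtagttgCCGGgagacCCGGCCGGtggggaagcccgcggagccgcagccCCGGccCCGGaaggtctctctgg

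The MspI tags of the members were plentiful in every sample. The median member had 78, 92 and 120 MspI tags in 786 AA 1, 786 AA 2 and the 786 control, and 81, 59 and 177 in 769 AA 1, 769 AA 2 and the 769 control. The HpaII libraries held 9633901, 3665031 and 160466 nuclear tags in 786 AA 1, AA 2 and control, and 6220977, 2662659 and 5051109 in 769 AA 1, AA 2 and control. The MspI libraries held between 3473118 and 11433766, so the 786 control HpaII library was by far the smallest of the 12. At a ratio of 1 the median member would hold 2.309 tags in it, and in 757 of the 841 members a single tag would put the ratio over 0.2.

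The rule did not use the 786 control HpaII library, so its values in the members are an independent reading of HpaII cutting. Over the 841 members it held 56.47 HpaII tags, against 122450 MspI tags, a summed ratio of 0.02397 with an exact Poisson interval at 95% of 0.01795 to 0.03087, which covers counting error only. In the other 9843 eligible windows the same sample had a summed ratio of 2.198, which is 91.7 times that of the members. No HpaII tag was seen there in 97.38% of the members, against 34.46% of the other windows. In this library 17 members had a ratio over 0.2 and 5 a ratio over 1, and the 17 all rest on 10 tags or fewer. In 786 the low HpaII cutting of the members as a whole therefore holds in a library that did not choose them. At this depth it is not shown window by window. The rule used every sample of the other line, so the label of the islands as methylated in both lines was not tested independently there.

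Windows that were low in only 1 line did not read the same in that library. The 351 windows that were low in both 786 AA samples but not in all 769 samples had a summed ratio of 0.0992 in the 786 control (interval 0.08049 to 0.1214). The 350 windows that were low in the 3 samples of 769 but not in both 786 AA samples had 0.4519 (interval 0.4094 to 0.4983). The interval of the members lies below both. Of the 1192 windows low in the 786 AA samples 70.55% are members, and of the 1191 windows low in the 769 samples 70.61% are.

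**Figure D1:**
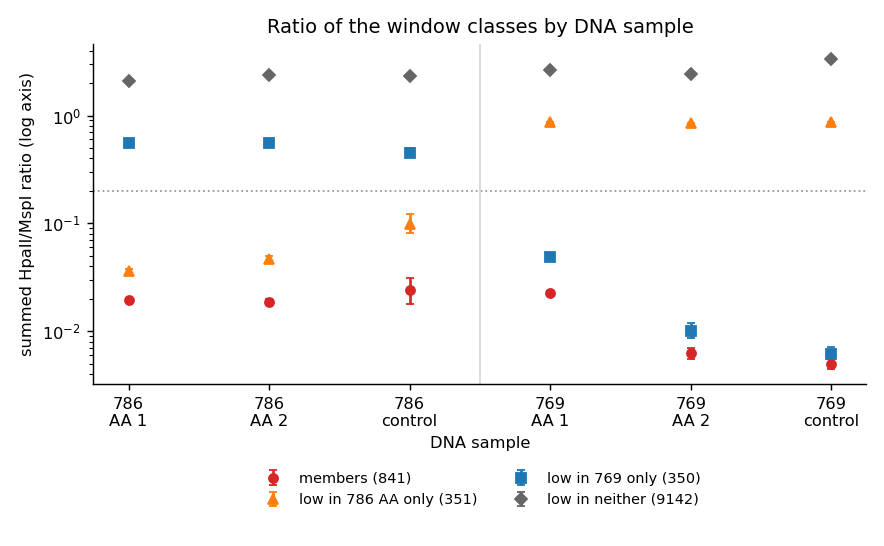
Summed HpaII/MspI ratio (log axis) of 4 classes of eligible windows in each of the 6 DNA samples; bars are exact Poisson intervals at 95% and the dotted line is the ratio of 0.2 in the rule, which used every sample but the 786 control. In the 786 control the members sit at 0.02397, the windows low in 786 AA only at 0.0992, those low in 769 only at 0.4519 and those low in neither at 2.35.

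The summed ratio of the members in the 5 samples of the rule was 0.01943 and 0.01877 in 786 AA 1 and 2, 0.02254 and 0.006249 in 769 AA 1 and 2, and 0.004965 in the 769 control. The other eligible windows lay between 1.968 and 3.102 in the 6 samples. In 769 AA 1 the low level was spread thinly, with at least part of a tag in 580 members, against 151 in 769 AA 2 and 133 in the 769 control. The HpaII library of 769 AA 1 also listed more sites genome-wide, 279974 against 136539 in AA 2 and 107494 in the control, and its part in the members' values was not tested. In 786 HpaII tags were present in 181 members in AA 1, 178 in AA 2 and 22 in the control. The control library held 160466 nuclear HpaII tags, against 9633901 and 3665031 in AA 1 and 2, so these counts cannot be compared.

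Most members were far from the threshold. Their highest ratio over the 5 samples was under 0.1 in 707 members (84.07%) and under 0.05 in 613, and 156 members (18.55%) had no HpaII tag in any of the 6 libraries. Only 209 eligible windows had a highest ratio between 0.2 and 0.4, while 9214 were over 1. Among windows with 100 or more MspI tags in all 5 samples, those just inside the threshold had highest ratios of 0.1996 (chr7:56440001-56441000), 0.1728 (chr8:144303001-144304000) and 0.1692 (chr21:46439001-46440000). Those just outside had 0.2087 (chr20:62402001-62403000), 0.2184 (chr2:239039001-239040000) and 0.2242 (chr8:145938001-145939000).

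HpaII tags reached few of the members' sites. In the 5 samples of the rule this follows from how members were chosen, so it is not a result there. Only the 786 control, the shallow library, was not used by the rule. Where a site had 5 or more MspI tags in a sample, an HpaII tag was present at 4.804% and 4.331% of the sites of members in 786 AA 1 and 2, at 0.6158% in the 786 control, at 19.29% and 4.491% in 769 AA 1 and 2, and at 2.683% in the 769 control. In the other eligible windows these shares were 74.41% and 74.32%, 14.93%, 80.85% and 58.03%, and 50.6%.

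Gene starts were rare in the members. A gene start could be placed in 28 of 801 members (3.496%) and in 3127 of 9441 other eligible windows (33.12%), leaving aside chromosome 8, for which no promoter was used. Read the other way, 0.8875% of the 3155 windows with a placed start were members (Wilson interval at 95% of 0.6147% to 1.28%), against 10.91% of the 7087 windows without one (10.2% to 11.65%). Windows low in 1 line lay between, with a start in 11.08% of those low in 786 AA only and 6.471% of those low in 769 only. The median distance to the nearest placed start was 37.36 kb for members and 14.06 kb for the other windows, but the windows low in 786 AA only (41.47 kb) and in 769 only (56.01 kb) were farther away than the members. Only promoters with at least 4 CCGG sites that matched once could be placed, so a window without a placed start may still hold one.

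The 28 windows hold the starts of 31 genes, 17 coding for proteins and 14 for long noncoding RNAs, and 13 of the 31 had no HpaII tag at any promoter site in any library. Some promoters had few or no MspI tags in some samples, where HpaII cutting could not be read. CHAD, which codes for chondroadherin, a matrix protein of cartilage, had the most MspI tags at its promoter. Its promoter had 58, 103 and 138.5 MspI tags in 786 AA 1, AA 2 and control, and 93, 68 and 262 in 769 AA 1, AA 2 and control. HpaII gave 0, 10 and 0 tags in 786 AA 1, AA 2 and control, and 30, 8 and 0 in 769 AA 1, AA 2 and control. HpaII tags were thus present in 3 of the 4 AA samples and in neither control, at promoter ratios of up to 0.2599. Higher promoter ratios were seen on fewer MspI tags, among them 0.4476 at PRSS41 in 769 AA 1 (9 MspI tags). The highest was 2.609 at TPTE2 in 769 AA 2, on 1 MspI tag.

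CLDN7, a claudin of epithelial tight junctions, had HpaII tags in the same manner. HpaII gave 5, 2 and 0 tags at its promoter in 786 AA 1, AA 2 and control, and 12, 0 and 0 in 769 AA 1, AA 2 and control, with between 29 and 102 MspI tags in each of the 6 samples. Its window was not among those called in any fit described below, and neither was that of CHAD. With 5 tags or fewer in most of these libraries and 1 control a line, no difference at a single promoter of this depth is shown.

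The other promoters shown above were close to empty of HpaII tags, which the choice of their windows by a low ratio favours. EPS8L2, which codes for a relative of the actin regulator EPS8, had 3 HpaII tags, all in 769 AA 1, against 454 MspI tags over the 6 libraries. SBNO2, a homologue of the Drosophila gene strawberry notch, had 1 against 306, and FAM217A had 1 against 220. ALOX12, the arachidonate lipoxygenase of platelets, had 0 HpaII tags against 223 MspI tags, and a count of 0 allows up to 3 tags. TACC2, of the centrosomal TACC family, had 1 HpaII tag against 225 MspI tags.

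Of the remaining protein-coding genes, BNC1, a zinc finger protein of keratinocytes and germ cells, PDLIM4, which has a PDZ and a LIM domain and binds actin, and HSF5, a heat shock factor family member of the testis, had 0 HpaII tags, with 111, 153 and 129 MspI tags. SH3BP2, an adaptor protein, and SAP25, a subunit of Sin3 corepressor complexes, also had 0 HpaII tags, with 168 and 126 MspI tags. These sums hide samples with few tags. BNC1 had only 4, 2 and 1 MspI tags in 786 AA 1, AA 2 and control. HSF5 had 3, 0 and 0 in 769 AA 1, 769 AA 2 and 786 AA 1. SH3BP2 had 4 in 786 AA 1, and SAP25 had 4 in the 769 control. In those samples a lack of HpaII tags at these promoters cannot be read as a lack of cutting. LAD1, an anchoring filament protein of basement membranes, had 1 against 170, and the homeobox gene ANHX had 4 against 260. PRSS41, a serine protease, had 10 against 132.5. SLC2A14, a glucose transporter gene with a close copy in SLC2A3, had 13.5 against 127.5, and TPTE2, a gene with several near-identical copies, had 25 against 217. The values of these last genes are uncertain, since tags may be shared between copies.

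Among the noncoding genes, PAX8-AS1, antisense to the kidney lineage factor PAX8, had 0.8333 HpaII tags against 319.7 MspI tags. The MspI count of PAX8-AS1 was not whole in any sample, so its tags may be shared with other places and its values are uncertain. LINC02788 and LINC02609, whose starts share a window of chromosome 1, had 0 and 1 HpaII tags against 488 and 336 MspI tags. BNC1-AS1 starts in the same window as BNC1 and had 0 against 48, with 0 MspI tags in 769 AA 2 and in the 769 control. In the shallow HpaII library of the 786 control no promoter of the 31 had a tag.

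**Figure D2:**
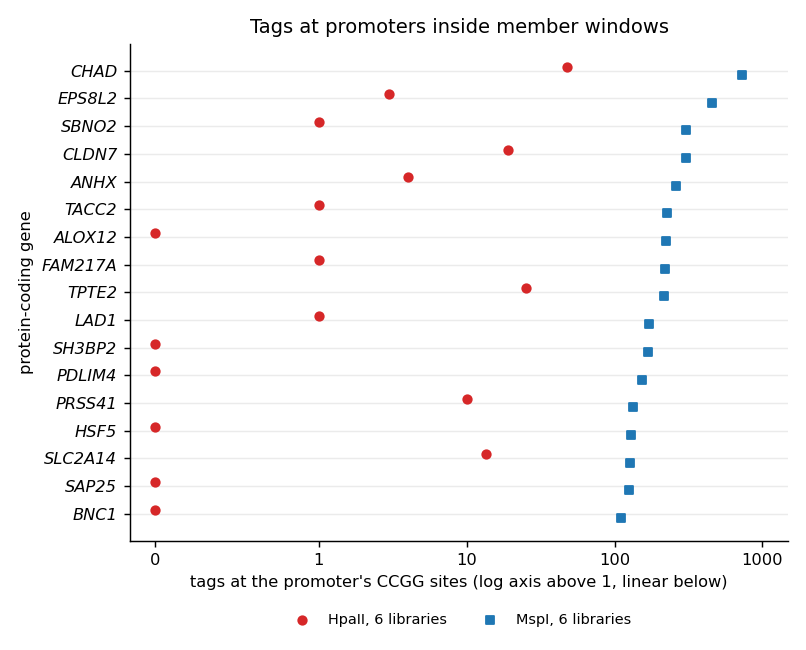
HpaII tags (circles) and MspI tags (squares) at the promoter CCGG sites of the 17 protein-coding genes whose start was placed in a member, summed over the 6 libraries of each enzyme, on an axis that is logarithmic above 1 and linear below. HpaII tags run from 0 to 48 and MspI tags from 111 to 722.5, and every gene has more MspI than HpaII tags.

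Members were crowded towards chromosome ends. Within 2 Mb of the first or last listed site of their chromosome lay 377 of 841 members (44.83%) and 1658 of 9843 other eligible windows (16.84%). The windows low in 1 line shared much of this, with 31.91% of those low in 786 AA only and 40.29% of those low in 769 only. The share of windows that were members was 19.06% within 1 Mb of an end, 17.99% from 1 to 2 Mb, 8.987% from 2 to 5 Mb, 7.59% from 5 to 10 Mb, 5.158% from 10 to 20 Mb and 4.025% beyond 20 Mb. On acrocentric chromosomes the first listed site is not at the telomere. Of windows without a placed start, 22.99% were members near an end and 7.709% elsewhere. Of windows with one, 1.446% were members near an end (0.6643% to 3.118%) and 0.8029% elsewhere (0.5308% to 1.213%), and these intervals overlap.

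The densest windows were members least often. The share was 14.47% at 10 reference sites, 10.45% at 11 to 12, 5.502% at 13 to 15, 3.364% at 16 to 19 and 3.523% at 20 or more, where the last 2 intervals overlap (2.648% to 4.265% and 2.588% to 4.78%). Chromosome 19 had the highest share, 140 members of 756 eligible windows (18.52%), and chromosome 3 the lowest, 7 of 390 (1.795%). Chromosomes 21, 7, 13 and 16 followed chromosome 19 with 12.35%, 11.16%, 11.02% and 10.6%, and their Wilson intervals overlap one another. More than 2 Mb from an end, chromosome 19 still had 16.1% (13.29% to 19.38%), against 8.421% on chromosome 7 (6.41% to 10.99%) and 4.464% on chromosome 21 (1.922% to 10.03%).

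**Figure D3:**
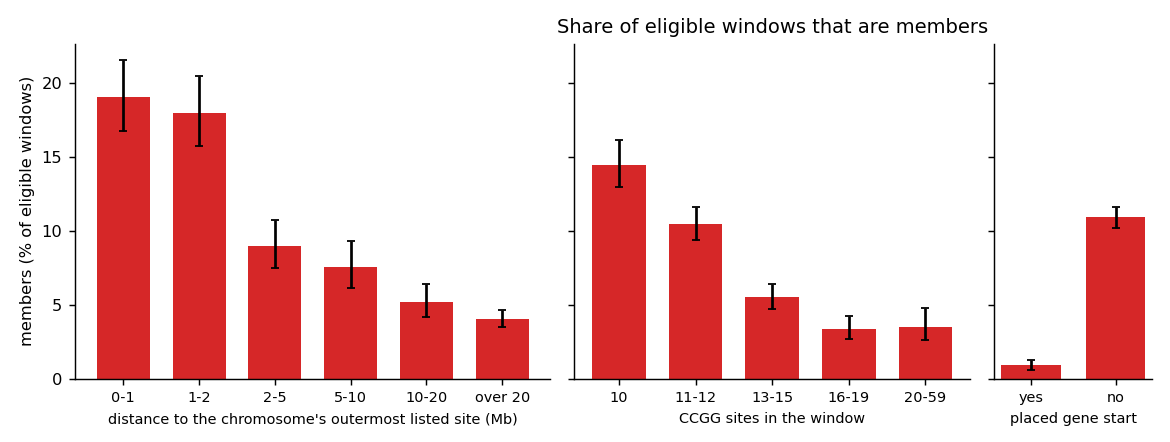
Members as a share of the eligible windows, by distance in Mb to the nearer of the chromosome's outermost listed sites, by the number of reference CCGG sites in the window, and by whether a gene start was placed in it; bars start at 0 and the lines are Wilson intervals at 95%. The share falls from 19.06% within 1 Mb of an end to 4.025% beyond 20 Mb, and is 0.8875% with a placed start and 10.91% without.

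Regular spacing of sites, as tandem repeats give, was more common in the members than in the other eligible windows as a whole, and about as common in windows low in 769 only. At least 30% of the distances between neighbouring listed CCGG sites were equal in 95 of 781 members with at least 5 such distances (12.16%), against 237 of 9686 other windows (2.447%). The share was 5.389% of windows low in 786 AA only and 10.81% of those low in 769 only. Among the members with the most MspI tags is chr5:1339001-1340000, where 7 of 9 distances were 64 bases. It had 5.467 HpaII tags, against 3343 MspI tags. Where copies of a repeat are alike, tags cannot be given to a single site: windows in which most listed sites had MspI counts that were not whole made up 17% of the members and 5.73% of the others, with 19.14% of those low in 769 only. Without such windows the evenly spaced share was 3.659% of 656 members and 1.499% of 9142 others, while a start was placed in 3.614% and 34.65% and an end lay within 2 Mb in 43.27% and 16.06%.

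The low ratio reached beyond the members' own borders and faded over several kb, sooner in neighbours with 10 or more reference sites than in sparser ones. In windows that were not members and lay 1 kb from one, the summed ratio was 0.228 and 0.2395 in 786 AA 1 and 2, 0.1793 in the 786 control, 0.2775 and 0.2508 in 769 AA 1 and 2, and 0.2793 in the 769 control. Windows that were not members and lay 1 kb from other eligible windows had 1.688, 1.97, 1.887, 2.231, 2.045 and 2.684 in the same samples. At 10 kb the members' surroundings had risen to between 0.7739 and 1.044 and those of the others lay between 0.8684 and 1.089, so that the ranges overlapped. Neighbours at 1 kb had a median of 7 reference sites around members and 10 around the others, and neighbours under 10 sites had a lower ratio around both. Among such neighbours at 1 kb the ratio was 0.08327 to 0.1413 around members and 1.351 to 1.737 around the others. At 10 kb it was 0.371 to 0.4817 around members and 0.5032 to 0.68 around the others, and these ranges did not overlap. Neighbours at 1 kb with 10 or more sites had 0.5333 to 1.053 around members (77 windows) and 1.916 to 3.363 around the others. At 2 kb they had 1.194 to 2.019 around members (46 windows) and 1.555 to 2.615 around the others, and these ranges overlapped. Such neighbours exclude members, and so the dense windows that were low in both lines.

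**Figure D4:**
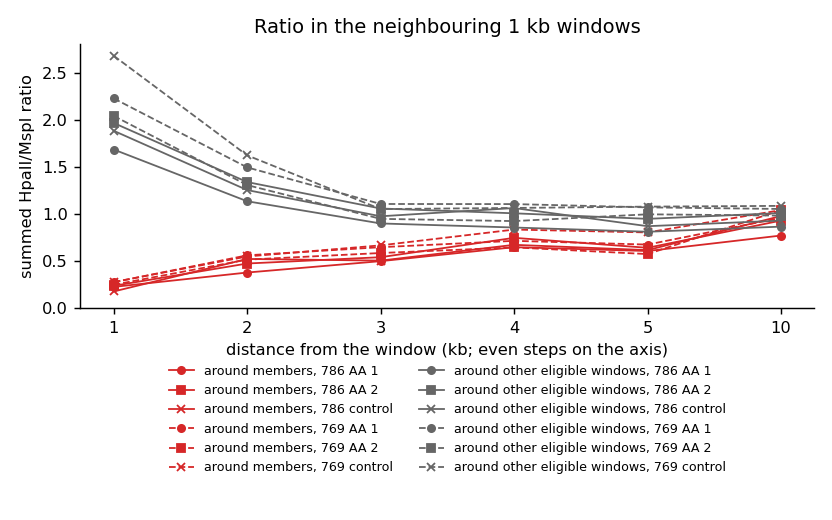
Summed HpaII/MspI ratio in the 1 kb windows at 1 to 5 kb and at 10 kb from the 841 members (red) and from the other eligible windows (grey). Members were left out of the neighbours of both, there is 1 curve per DNA sample, and distances stand in even steps. At 1 kb every red curve is at or below 0.2793 and every grey curve at or above 1.688, and at 10 kb they overlap when neighbours of any site number are summed.

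Members were mostly single windows. Of the runs of adjacent members 733 were single, 48 were pairs and 4 were triples, so that 108 members (12.84%) touched another one. The 4 triples lie at chr1:1102001-1105000, 4262 bases from the start of TTLL10, at chr8:144808001-144811000, at chr19:1227001-1230000, 7929 bases from the start of CBARP-DT, and at chr16:2228001-2231000, 33843 bases from that of PGP. Over 3 kb, the triple on chromosome 16 had 4 HpaII tags, all in 769 AA 1, while its MspI tags ran from 186 to 635 per sample. The triple on chromosome 19 had 28 and 2 HpaII tags in 769 AA 1 and 2, 0.5 in the 769 control and 0 in each 786 sample. The triple on chromosome 1 had 2, 2 and 0 HpaII tags in 786 AA 1, AA 2 and control, and 34, 12 and 1 in 769 AA 1, AA 2 and control.

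The members with the most reference sites had few HpaII tags at the sites that were measured, as the rule asks of every member. The most reference sites, 59, were in chr19:540001-541000, of which 9 had a tag in any library, with 2 HpaII tags against 606 MspI tags over the 6 libraries, at 8239 bases from the start of CDC34. The next 4 had 28 or 29 reference sites, of which 5 to 22 had a tag in any library, and between 3 and 4 HpaII tags each. They are chr12:133364001-133365000, chr11:401001-402000, chr19:458001-459000 and chr13:114761001-114762000, and of these chr19:458001-459000 lies 2035 bases from the start of SHC2. Other members with the most MspI tags also had few HpaII tags. The window chr20:62493001-62494000 had 5 HpaII tags against 2637 MspI tags, chr16:3779001-3780000 had 7 against 2458 chr8:145676001-145677000 had 6 against 2484 and chr16:1235001-1236000 had 5.748 against 2476. More HpaII tags were seen in chr18:44555001-44556000, with 39.33 of its 47.92 in 786 AA 1, and in chr8:145006001-145007000, with 31 against 2349 MspI tags and 14 of the 31 in the 769 control.

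The deepest 3 members stand apart from the rest. They lie together on chromosome 7, at least 405.7 kb from the nearest placed start, and every listed site in them had counts that were not whole, as counts divided among several places of alignment would be. The deepest, chr7:56441001-56442000, had 1501, 1375 and 2211 MspI tags in 786 AA 1, AA 2 and control, and 1069, 866.7 and 2827 in 769 AA 1, AA 2 and control. It had 346.7, 106.3 and 2.1 HpaII tags in 786 AA 1, AA 2 and control, and 22.48, 2.95 and 0.9 in 769 AA 1, AA 2 and control. Its ratios were 0.1365, 0.1281 and 0.04937 in 786 and 0.01695, 0.00444 and 0.0007207 in 769 in that order. Every 786 sample was above every 769 sample, and in each line both AA samples were above the control.

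The next window, chr7:56440001-56441000, had ratios of 0.1392, 0.1996 and 0.07676 in 786 AA 1, AA 2 and control, and 0.02744, 0.005933 and 0.0007519 in 769 AA 1, AA 2 and control. The third, chr7:56438001-56439000, had 0.07566, 0.1476 and 0.07244 in 786 AA 1, AA 2 and control, and 0.03655, 0.001195 and 0.0005184 in 769 AA 1, AA 2 and control. In both, every 786 sample was again above every 769 sample, and both AA samples of a line above its control. With a 4th member beside them, these windows held much of the members' HpaII tags in 786. Without them the summed ratio of the members was 0.01482 and 0.013 in 786 AA 1 and 2 and 0.02191 in the 786 control, and 0.02244 and 0.006325 in 769 AA 1 and 2 and 0.005149 in the 769 control.

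**Figure D5:**
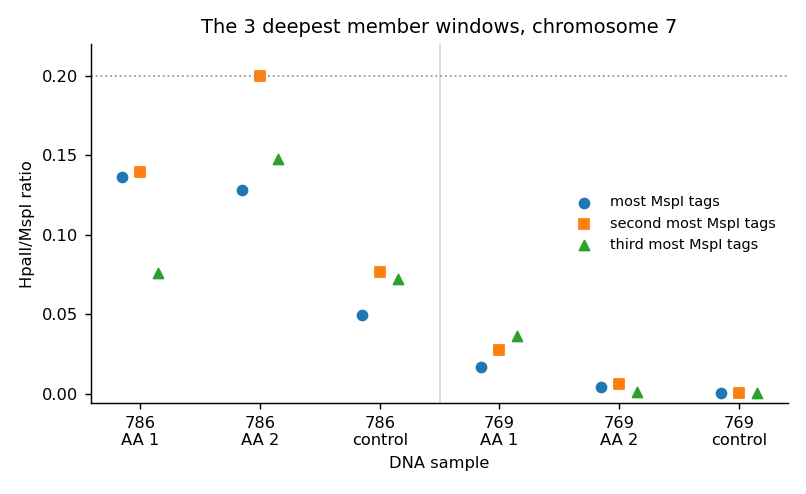
HpaII/MspI ratio of the 3 member windows with the most MspI tags, all on chromosome 7, in each DNA sample; the dotted line is the ratio of 0.2 in the rule. In 786 the ratios run from 0.04937 to 0.1996 and in 769 from 0.0005184 to 0.03655.

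Between the lines, the ratio was tested with edgeR's quasi-likelihood test over all 10684 eligible windows, with Benjamini-Hochberg adjustment. The ceiling of 0.2 came from the same libraries, so the members' counts are given beside the background and nothing is read from them. Of all windows 2.56% were called in either direction and 1.17% as higher and 1.39% as lower in 786, and 3 members were called, all higher in 786. They are the 3 deepest windows on chromosome 7, with log2 differences of 4.02 (SE 0.6385, adjusted p = 2.682e-07) for chr7:56440001-56441000, 4.12 (SE 0.6572, adjusted p = 2.682e-07) for chr7:56441001-56442000 and 3.62 (SE 0.8138, adjusted p = 0.001239) for chr7:56438001-56439000. The first and the second remained called without any 1 DNA sample, with adjusted p of up to 0.03824. The third was lost without 769 AA 2 (adjusted p = 0.4166). Next by p came chr1:25228001-25229000, with 3, 12 and 4 HpaII tags in 786 AA 1, AA 2 and control and 0 in each 769 sample, and its adjusted p of 0.05545 did not pass. The window chr1:1007001-1008000 leaned the other way, with 0 HpaII tags in each 786 sample and 11, 9 and 0 in 769 AA 1, AA 2 and control, and did not pass either (adjusted p = 0.05823).

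MspI tags, which do not depend on methylation, were compared between the lines in the same windows, since copy number or loss of a site would show there. The edgeR quasi-likelihood test called 0 of the 841 members in either direction, where 0.0562% of all windows were called, 0.0374% as higher and 0.0187% as lower in 786. An unadjusted p under 0.05 was reached by 81 of 841 members and by 928 of all 10684 windows (8.69%). DESeq2 called 6 members, all higher in 786, and called 48 of all windows as higher (0.449%). Of all windows edgeR called 4 as higher and 2 as lower in 786, and 0 and 1 without TMM scaling. No member therefore had a line difference in MspI tags that both tools called.

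AA was compared with control over both lines by edgeR's quasi-likelihood test, to ask whether a cofactor of the TET enzymes goes with more HpaII cutting. Over all windows the median log2 difference was 0.53, and it was 1.04 within 786 and 0.23 within 769. Without TMM scaling these medians were 0.24, 0.78 and -0.05 in that order, so the shifts depend on the scaling. Changes are to be read against those shifts. Of all windows 0.739% were called and 0.627% as higher and 0.112% as lower with AA, and 1 member was called, chr7:56440001-56441000, with a log2 difference of 2.75 (SE 0.764, adjusted p = 0.04757). It lost the call without any 1 of the 4 AA samples (adjusted p from 0.139 to 0.504). Without TMM scaling 25 windows were called higher and 16 lower, against 67 and 12 with it. Only 154 members had at least 10 HpaII tags over the 6 libraries, after rounding as for the test. In the rest the low HpaII counts, which the ceiling of 0.2 selected for, limit what the test can detect.

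Within 786, 1.1% of all windows were called and 0.824% as higher and 0.271% as lower with AA, and 1 member was called, chr16:88994001-88995000. It had 0, 7 and 5 HpaII tags in 786 AA 1, AA 2 and control, against 305, 240 and 276 MspI tags, for ratios of 0, 0.04836 and 0.9416. Its adjusted p from edgeR's quasi-likelihood test was 0.04384. The call was lost without 786 AA 1 (adjusted p = 0.365) and without 769 AA 2 (adjusted p = 0.05957). Over all windows 88 were called higher and 29 lower with AA in 786 by edgeR, but 1 higher and 62 lower by DESeq2, 24 and 33 without TMM scaling and 19 and 23 with TMM over all 12 libraries. The control library of 786 is the shallow one, and its part in these calls was not tested. The rule also allowed a high ratio in the 786 control of a member but not in its 786 AA samples. Nothing is therefore read from the direction of this member's call.

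The members with the most HpaII tags in the 786 control were few. The window chr16:1215001-1216000 had 18, 10 and 10 HpaII tags in 786 AA 1, AA 2 and control, which in the shallow control library is a ratio of 4.158, and 0, 1 and 0 in 769 AA 1, AA 2 and control. The window chr7:63250001-63251000 had 39.67, 3.333 and 4 in 786 AA 1, AA 2 and control. The window chr10:134115001-134116000 had 4 tags in the 786 control and none in any other library.

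Within 769, 3.44% of all windows were called and 2.83% as higher and 0.608% as lower with AA, and 3 members were called, all higher and again the deepest windows on chromosome 7. Their log2 differences were 4.38 (adjusted p = 0.003045), 6.84 (adjusted p = 0.01019) and 3.83 (adjusted p = 0.01368) by edgeR's quasi-likelihood test for chr7:56440001-56441000, chr7:56438001-56439000 and chr7:56441001-56442000. These calls rest on 1 sample, since without 769 AA 1 none of the 3 passed (adjusted p from 0.2059 to 1). The next by p, chr19:1136001-1137000, lies 3779 bases from the start of SBNO2 and had 41, 1 and 0 HpaII tags in 769 AA 1, AA 2 and control, with an adjusted p of 0.06635. In 786 it had 0, 19 and 0 in AA 1, AA 2 and control. The window chr7:155596001-155597000 had 16.5, 6 and 0 HpaII tags in 769 AA 1, AA 2 and control, none in 786, and an adjusted p of 0.1054. Over all windows 302 were called higher and 65 lower with AA in 769, against 221 and 92 without TMM scaling.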

How the data were processed

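The authors deposited, for each of the 12 libraries, expected counts of tags left and right of each listed CCGG site and their sum. Per the labels' protocols, libraries were amplified in 18 PCR cycles, with no molecular identifier described, so intervals cover counting error only. Coordinates are on hg19 (submitters' processing notes), and no source used here names the aligner. Library totals ran from 189704 to 12442031 tags.

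Counts were summed in 1 kb windows, and shares were taken of tags on nuclear chromosomes. For the tests, window counts were rounded to whole numbers. edgeR 4.0.16 (R 4.3.3) fitted all 12 libraries with terms for DNA sample, enzyme, enzyme by line and enzyme by AA (3 residual degrees of freedom), or AA within each line (2). TMM factors were computed within an enzyme and p-values adjusted by Benjamini-Hochberg over 10684 windows, with calls at an adjusted p under 0.05. The fit of AA over both lines alone was checked on simulated data, where most windows given a change were not called. Each line had a lone control, whose spread is taken to equal that of the remaining samples. Alternatives included DESeq2 1.42.0. Python 3.11.15, pandas 2.3.3 and scipy 1.17.1 were used elsewhere.

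Windows were named by a rule on run length, MspI tags, site number, smallest p, tags in the 786 control and nearness to 0.2. The members and lists were chosen with earlier results of these data known. The plan was to give gene names only from an annotation of hg19. Instead, RefSeq promoters of GRCh38.p14 (300 bases) were placed by order, spacing and running number of at least 4 CCGG sites, a step added after the data were seen. Of 35116 promoters 8329 had enough sites, 4526 were placed once and 4501 of these (99.45%) on the chromosome that RefSeq gives, where 5 neighbours stood out of order.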

Additional observations from a re-analysis of the deposited data

Results flagged for a closer look

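The summed HpaII/MspI ratio of the members lay on opposite sides of the control in the 2 lines. In 786 it was 0.01943 and 0.01877 with AA and 0.02397 in the control, a mean difference of -0.00487. In 769 it was 0.02254 and 0.006249 with AA and 0.004965 in the control, a mean difference of 0.00943. The mean differences of 786 and 769 thus differ by -0.0143, and this was not tested. The rule set a ceiling on the ratio in both 786 AA samples and in every 769 sample, but not in the 786 control. In the 786 control 17 members were over that ceiling. The choice of members thus favours a control above the AA samples in 786. Nothing is therefore read from the opposite directions of the lines. The value of the 786 control has an interval of 0.01795 to 0.03087, which holds both 786 AA values, and rests on 56.47 tags. This overlap depends on the 4 windows on chromosome 7. Without them the interval was 0.01616 to 0.02887, and the 786 AA values, 0.01482 and 0.013, lay below it.

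The same was true of 2 windows among those named. In chr6:107955001-107956000 the ratio was 0 and 0.01564 with AA and 0.9039 in the control of 786, where the control value is 2 tags. In 769 it was 0.01896 and 0.1615 with AA and 0 in the control. The AA minus control differences of the lines differ by -0.9863. In chr8:145006001-145007000 the ratio was 0.01394 and 0.0128 with AA and 0 in the control of 786. In 769 it was 0.019 and 0 with AA and 0.04089 in the control, and the differences of the lines differ by 0.04476. Neither was tested, and the ceiling of 0.2 did not hold for the 786 control.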

How the results depend on the processing

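The number of members ranged from 684 to 945 under the alternatives to the rule, except for 132 with at least 15 reference sites, where fewer windows are eligible (3769). Leaving out 1 of the 5 DNA samples gave 863 to 945. In the 786 control, the summed ratio of the members was 0.01498 at a ratio of 0.1 or less, 0.04123 at 0.3 or less and 0.04441 with left tags only, against 0.02397. The share of members with a placed gene start stayed between 3.337% and 5.6%, and was 3.496% against 31.33% of the other windows when only sites with an MspI tag were used to place promoters. Evenly spaced sites made up 3.659% of the members without windows of split counts and 5.122% when 50% of the distances had to be equal; these settings and the exclusion of windows on chromosome 7 were chosen after seeing the data.

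Counts of called windows depended on the fit, and the cause was not tested. For AA over control in both lines, 79 became 41 without TMM, 446 with DESeq2, 5 with at least 10 HpaII tags, 146 with HpaII alone, and 0 to 9 without 1 AA sample. The 0 came without 769 AA 2, where 838 windows had an unadjusted p under 0.05. For 786 over 769, 273 became 652 with DESeq2, 142 with at least 10 HpaII tags and 36 to 299 without 1 sample (36 without 769 AA 2, 77 without 786 AA 1, 125 without 769 AA 1, 131 without 786 AA 2). For AA in 769, 367 became 809 with DESeq2, 186 with at least 10 HpaII tags, 793 with HpaII alone and 273 to 460 without 1 sample. For AA in 786, 117 became 57 without TMM, 42 with TMM over all 12 libraries, 63 with DESeq2, 18 with at least 10 HpaII tags, 716 with HpaII alone and 39 to 99 without 1 sample (39 without 786 AA 1, 70 without 769 AA 2, 72 without 769 AA 1). In MspI tags, 6 became 1 without TMM, 65 with DESeq2 and 1 to 6 without 1 sample (1 without either control, 769 AA 2 or 786 AA 2). Among members, 0 to 14 were called in any of these fits, the 14 by DESeq2 between the lines.

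The AA samples share the numbers 1 and 2 across lines, but samples of the same number did not deviate together (r = -0.0126 over windows, a description). With a replicate block the counts were 10 for AA in both lines, 176 for 786 over 769, 93 for AA in 769, 22 for AA in 786 and 10 in MspI tags.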
